A study of Mus musculus with 583 samples.

Results

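Mitochondrial ribosomal protein genes encode the proteins of the mitochondrial ribosome and were taken as every protein-coding row of the count table, by GENCODE M21 biotype, whose symbol reads Mrpl or Mrps, a number and at most 1 letter. The rule found 77 genes among 38924 mouse genes, of which 48 are large subunit genes by symbol (Mrpl) and 29 small subunit genes (Mrps). The gene that GENCODE M21 lists as Mrpl33 matched no row and was not analysed here. All 77 genes had at least 1 count, and 76 passed the filter on low counts, Mrpl53 being the exception.

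The cells were J1 mouse embryonic stem cells kept in 2i/LIF, a culture medium that keeps them naive and pluripotent by blocking the kinases MEK and GSK3 and adding the cytokine LIF, and every group shares this line and medium. They were profiled with 6 single-cell methods, each in a library A and a library B, which gives 12 libraries and 583 cells. The full-length methods, Smart-seq / C1 and Smart-seq2, sample whole transcripts and enter as read counts. The 3' tag methods count unique molecular identifiers (UMIs) near the poly(A) tail, CEL-seq2 and MARS-seq after linear amplification by in vitro transcription and Drop-seq and SCRB-seq after PCR. Every comparison is between methods, with 2 libraries per method, and nothing in the labels says whether libraries A and B came from separate cultures, so a p-value covers the spread between libraries, which may be technical. All cells are of 1 line under 1 condition, and a difference between methods cannot be told apart from one between the cells that each method received.

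Mitochondria carry their own ribosome, assembled from rRNAs made in the organelle and from proteins encoded in the nucleus, translated in the cytosol and imported. Its large subunit joins amino acids and threads the new chain towards the inner membrane, and its small subunit binds the mRNA and decodes it. Some of its proteins have bacterial counterparts and others belong to mitochondria alone. The symbols do not always follow the position of the protein: Mrps30 and Mrps18a sit in the large subunit of the mammalian particle, and Mrps36 is a component of the alpha-ketoglutarate dehydrogenase complex.

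The libraries held between 583302 and 34984056 counts of mouse genes, and between 4304 and 381456 of those fell on the mitochondrial ribosomal protein genes. All 8 embryonic stem cell markers were counted in every library, with a summed level of 2748 to 7092 CPM, counts scaled to a common library total, while the 7 fibroblast markers summed to 0.445 to 39.7 CPM and the 5 primitive endoderm markers to 0 to 34.6 CPM. The neural markers reached 16.03 CPM and the mesendoderm markers 93.3 CPM in the highest library. Of 227 barcodes of the 3' tag methods, 64 occur in 2 or more libraries, and libraries A and B have 26 in common for CEL-seq2, 19 for MARS-seq, 0 for Drop-seq and 21 for SCRB-seq. No 2 cells had identical counts. In Drop-seq, 29 of 42 barcodes of library A and 12 of 34 of library B lie 1 base apart from another barcode of their library. Some may thus be the same cell. Such barcodes were also joined into 25 and 28 cells. Genes seen per cell, the correlation of subunits among cells and the variance over mean are given with them joined too.

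The 5 promoters below, from RefSeq (GRCm38.p6) and running from 250 bases before to 50 after the start, show how genes of this family are arranged and begin. RefSeq promoters were found for 68 of the 77 genes, in 74 windows because Mrpl2, Mrpl48 and Mrps16 have more than 1 start. The first pair are a large and a small subunit gene that face away from each other on chromosome 7, Mrpl46 at chr7:78783040-78783339 (minus strand) and Mrps11 at chr7:78782881-78783180 (plus strand), and the windows share 141 bases. The other 3 are the paralogs Mrps18a at chr17:46110754-46111053 (plus strand), Mrps18b at chr17:35916391-35916690 (minus strand) and Mrps18c at chr5:100798509-100798808 (plus strand), each with a different motif. Capitals mark a match, on either strand, to the motif letters of YY1 (AAGATGGCG) in Mrps11 and Mrps18a, of NRF1 (CGCATGCG) in Mrps18b and of GABPA (CCGGAAGT) in Mrps18c. In Mrps11 and Mrps18c the match reads on the other strand, and the Mrpl46 window holds none of the 3.
Mrpl46: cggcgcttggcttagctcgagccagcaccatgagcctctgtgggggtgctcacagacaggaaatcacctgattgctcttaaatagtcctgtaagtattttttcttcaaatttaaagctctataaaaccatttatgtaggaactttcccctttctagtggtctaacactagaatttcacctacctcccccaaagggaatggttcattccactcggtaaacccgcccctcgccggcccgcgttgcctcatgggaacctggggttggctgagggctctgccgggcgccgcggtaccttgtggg
Mrps11: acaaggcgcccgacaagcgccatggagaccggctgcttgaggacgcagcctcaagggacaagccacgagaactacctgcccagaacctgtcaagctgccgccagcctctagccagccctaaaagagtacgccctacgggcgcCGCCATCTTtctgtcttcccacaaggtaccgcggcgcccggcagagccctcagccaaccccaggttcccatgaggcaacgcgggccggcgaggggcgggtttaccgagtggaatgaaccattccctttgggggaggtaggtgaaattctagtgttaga
Mrps18a: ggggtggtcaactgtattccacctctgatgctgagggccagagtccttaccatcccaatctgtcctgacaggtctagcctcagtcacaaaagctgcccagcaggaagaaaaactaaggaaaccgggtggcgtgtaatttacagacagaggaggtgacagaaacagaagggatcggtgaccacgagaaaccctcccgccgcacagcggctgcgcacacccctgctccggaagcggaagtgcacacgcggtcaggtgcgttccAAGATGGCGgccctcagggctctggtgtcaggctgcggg
Mrps18b: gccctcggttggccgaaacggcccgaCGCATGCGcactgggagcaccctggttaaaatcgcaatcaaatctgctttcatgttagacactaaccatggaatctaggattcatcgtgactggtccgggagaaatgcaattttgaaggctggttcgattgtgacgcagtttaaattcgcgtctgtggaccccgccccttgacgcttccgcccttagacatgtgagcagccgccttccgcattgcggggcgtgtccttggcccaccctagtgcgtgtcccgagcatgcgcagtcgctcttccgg
Mrps18c: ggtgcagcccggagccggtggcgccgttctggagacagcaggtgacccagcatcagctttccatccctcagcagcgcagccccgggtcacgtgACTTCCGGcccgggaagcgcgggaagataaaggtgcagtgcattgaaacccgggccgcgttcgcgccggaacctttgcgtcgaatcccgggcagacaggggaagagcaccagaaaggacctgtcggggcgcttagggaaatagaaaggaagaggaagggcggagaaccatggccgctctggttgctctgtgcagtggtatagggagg

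NRF1, GABPA and YY1 are transcription factors known for their part in the expression of nuclear genes for mitochondrial proteins. Counted by gene, at least 1 of the 3 motifs was present in a window of 25 of the 68 genes (36.8%), against 7.58% of all 27025 genes with a RefSeq promoter and 10.5% of the 16209 protein-coding ones. GABPA letters were found in 11 genes (16.2%, against 6.02% of protein-coding genes), NRF1 letters in 7 (10.3%, against 2.91%) and YY1 letters in 8 (11.8%, against 2.28%), and 1 gene, Mrps27, had more than 1 of the 3. By subunit, 17 of 42 large subunit genes (40.5%) and 8 of 26 small subunit genes (30.8%) had a motif in a window. These are matches of letters within the window and were not tested for binding. A start on the opposite strand of another protein-coding gene lay within 1000 nt of 33 of the 77 genes (42.9%), against 11.05% of 21226 protein-coding genes in the table. Mrpl46 and Mrps11 are such a pair, and by their outermost starts in GENCODE M21 they overlap by 412 nt. The RefSeq starts behind the windows above differ from these.

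Large subunit genes together held between 1.86 and 2.62 times the counts of small subunit genes. The ratio of summed counts was 2.56 and 2.62 in Smart-seq / C1 libraries A and B and 2.17 and 2.22 in Smart-seq2. Among 3' tag methods CEL-seq2 gave 1.95 and 2.01, MARS-seq 1.96 and 1.93, Drop-seq 2.10 and 2.30, and SCRB-seq 1.86 and 2.00. All 12 values lay above 1.66, the ratio of the numbers of genes, and the Smart-seq / C1 libraries were the highest. With the subunits set by position in the particle, the mean over methods was 2.32 instead of 2.14, and the ratio of gene numbers was 1.92. A ratio of the medians over genes, which a few abundant genes cannot move far, averaged 1.16 and ran from 0.794 in CEL-seq2 library A, the 1 library below 1, to 1.47 in Smart-seq / C1 library B.

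**Figure D1:**
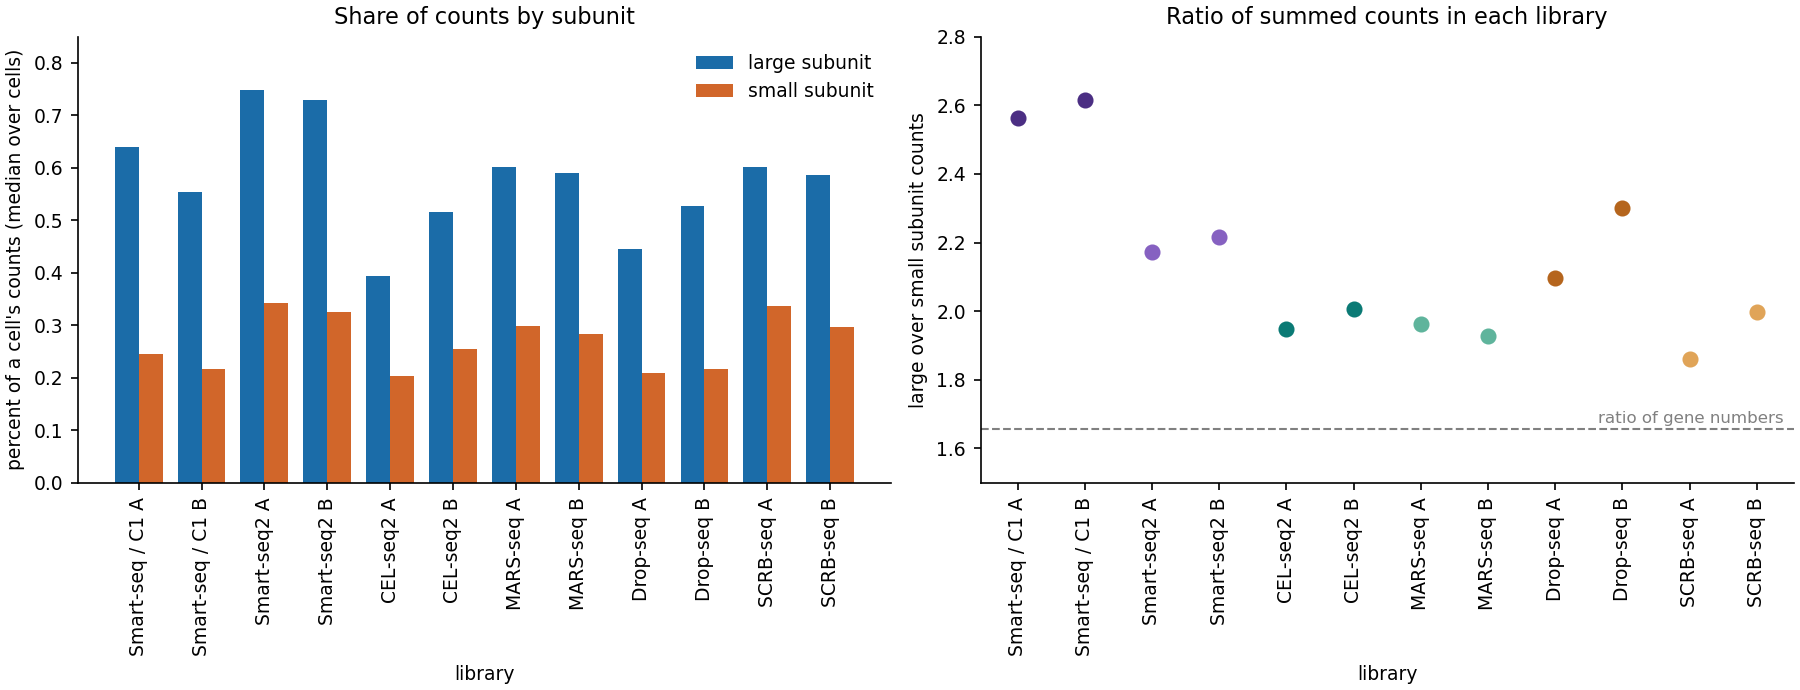
Left, the percent of a cell's counts held by large and small subunit genes, as the median over cells of each library. Right, the ratio of summed large to small subunit counts in each library (the axis starts at 1.5), with a dashed line at 1.66, the ratio of gene numbers. The large subunit bar is the taller in all 12 libraries, and both Smart-seq / C1 libraries lie above the other 10 on the right.

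As a share of the median cell's counts, the family took between 0.596% and 1.08% in the 12 libraries. Smart-seq / C1 libraries A and B gave 0.882% and 0.772%, Smart-seq2 gave 1.08% and 1.06%, CEL-seq2 gave 0.596% and 0.770%, and MARS-seq gave 0.891% and 0.895%. Drop-seq gave 0.673% and 0.762%, and SCRB-seq 0.941% and 0.874%. Smart-seq2 was the highest in both libraries and CEL-seq2 library A the lowest, and the libraries A and B of CEL-seq2 were further apart than those of any other method. Counts of large subunit genes took between 0.394% and 0.748% of the median cell, and counts of small subunit genes between 0.204% and 0.342%.

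When every cell was thinned to 10000 counts, a cell showed on average 40.1 and 37.1 of the 77 genes in Smart-seq / C1 libraries A and B. Smart-seq2 cells averaged 50.4 and 49.6 genes, CEL-seq2 cells 33.6 and 42.6, MARS-seq cells 39.4 and 42.9, Drop-seq cells 36.7 and 36.8, and SCRB-seq cells 47.4 and 45.2. No cell was too shallow to be thinned. With Drop-seq barcodes joined and thinned anew, Drop-seq cells averaged 37.8 and 37.9 genes. From all counts the averages ran from 47.4 genes in Drop-seq library B to 75.4 in Smart-seq2 library A. CEL-seq2 library B showed 72.2 genes at a median of 74255 UMIs per cell, against 70.4 at 311984 reads in Smart-seq / C1 library B. UMIs and reads are not the same measure of depth, and this holds at 10000 counts too. In thinned cells Mrpl15 was seen in a median over libraries of 96.0% of cells and Mrpl42 in 91.6%, against 8.66% for Mrpl23 and 23.9% for Mrps36.

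Among cells of a library, of which each held 29 to 80, the relation between large and small subunit counts was not steady in size. Spearman's correlation of the 2 shares over cells thinned to 10000 counts lay between 0.029, in Smart-seq / C1 library A, and 0.524, in SCRB-seq library B. A second draw of the same thinning gave 0.211 and 0.270 in those libraries. Another draw, made when Drop-seq barcodes were joined, gave 0.159 and 0.0070. CEL-seq2 library A had 0.364 in the first draw and 0.0999 in the second, so the value of a single library depends on the draw. In the first and second draws 0 of 12 libraries were below 0. At 5000 counts the 12 libraries ran from -0.321 to 0.339 and 4 were below 0, CEL-seq2 A and B, MARS-seq B and SCRB-seq A, while all counts, where depth differs between cells, gave 0.285 to 0.827. Drop-seq library A gave 0.12, and -0.020 without its 4 cells of more than 2 times the median count. With barcodes joined and thinned anew it gave 0.337. Drop-seq library B went from 0.202 to 0.0029 when joined. The same correlation between the subunits of the cytosolic ribosome lay between 0.438 and 0.85 at 10000 counts and between 0.375 and 0.815 at 5000. At 10000 counts the cytosolic genes took 1.61% to 11.9% of the median cell, against 0.585% to 1.07% for the family. Fewer counts weaken such a correlation, so the 2 ribosomes cannot be compared by it. The variance of a cell's family count over its mean was 0.955 to 2.62 in the 8 UMI libraries and 2.41 to 3.03 in the 4 read libraries at 10000 counts, against 4.89 to 24.7 over all 12 for cytosolic ribosomal protein genes. With barcodes joined, that of the family was 2.67 in Drop-seq A and 1.51 in Drop-seq B. Sampling of the counts alone gives 1, and in the read libraries this leaves out amplified copies of 1 molecule, which are counted as separate reads. A variance over mean rises with the mean where the relative spread is equal. These values therefore do not compare the spread of the family with that of cytosolic ribosomal protein genes.

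The genes kept a common order within a method and less of one between methods. Over the 76 genes tested, Spearman's correlation of CPM scaled by edgeR's TMM factors was 0.840 to 0.981 between libraries A and B of a method. It was 0.148 to 0.739, with a median of 0.534, over the 32 pairs of a full-length and a 3' tag library, and 0.362 to 0.80, with a median of 0.598, over the other 28 pairs of different methods. The median absolute difference of a gene between 2 libraries was 0.32 on the log2(CPM + 1) scale within a method (median of 6 pairs) and 0.66 between full-length and 3' tag libraries.

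**Figure D2:**
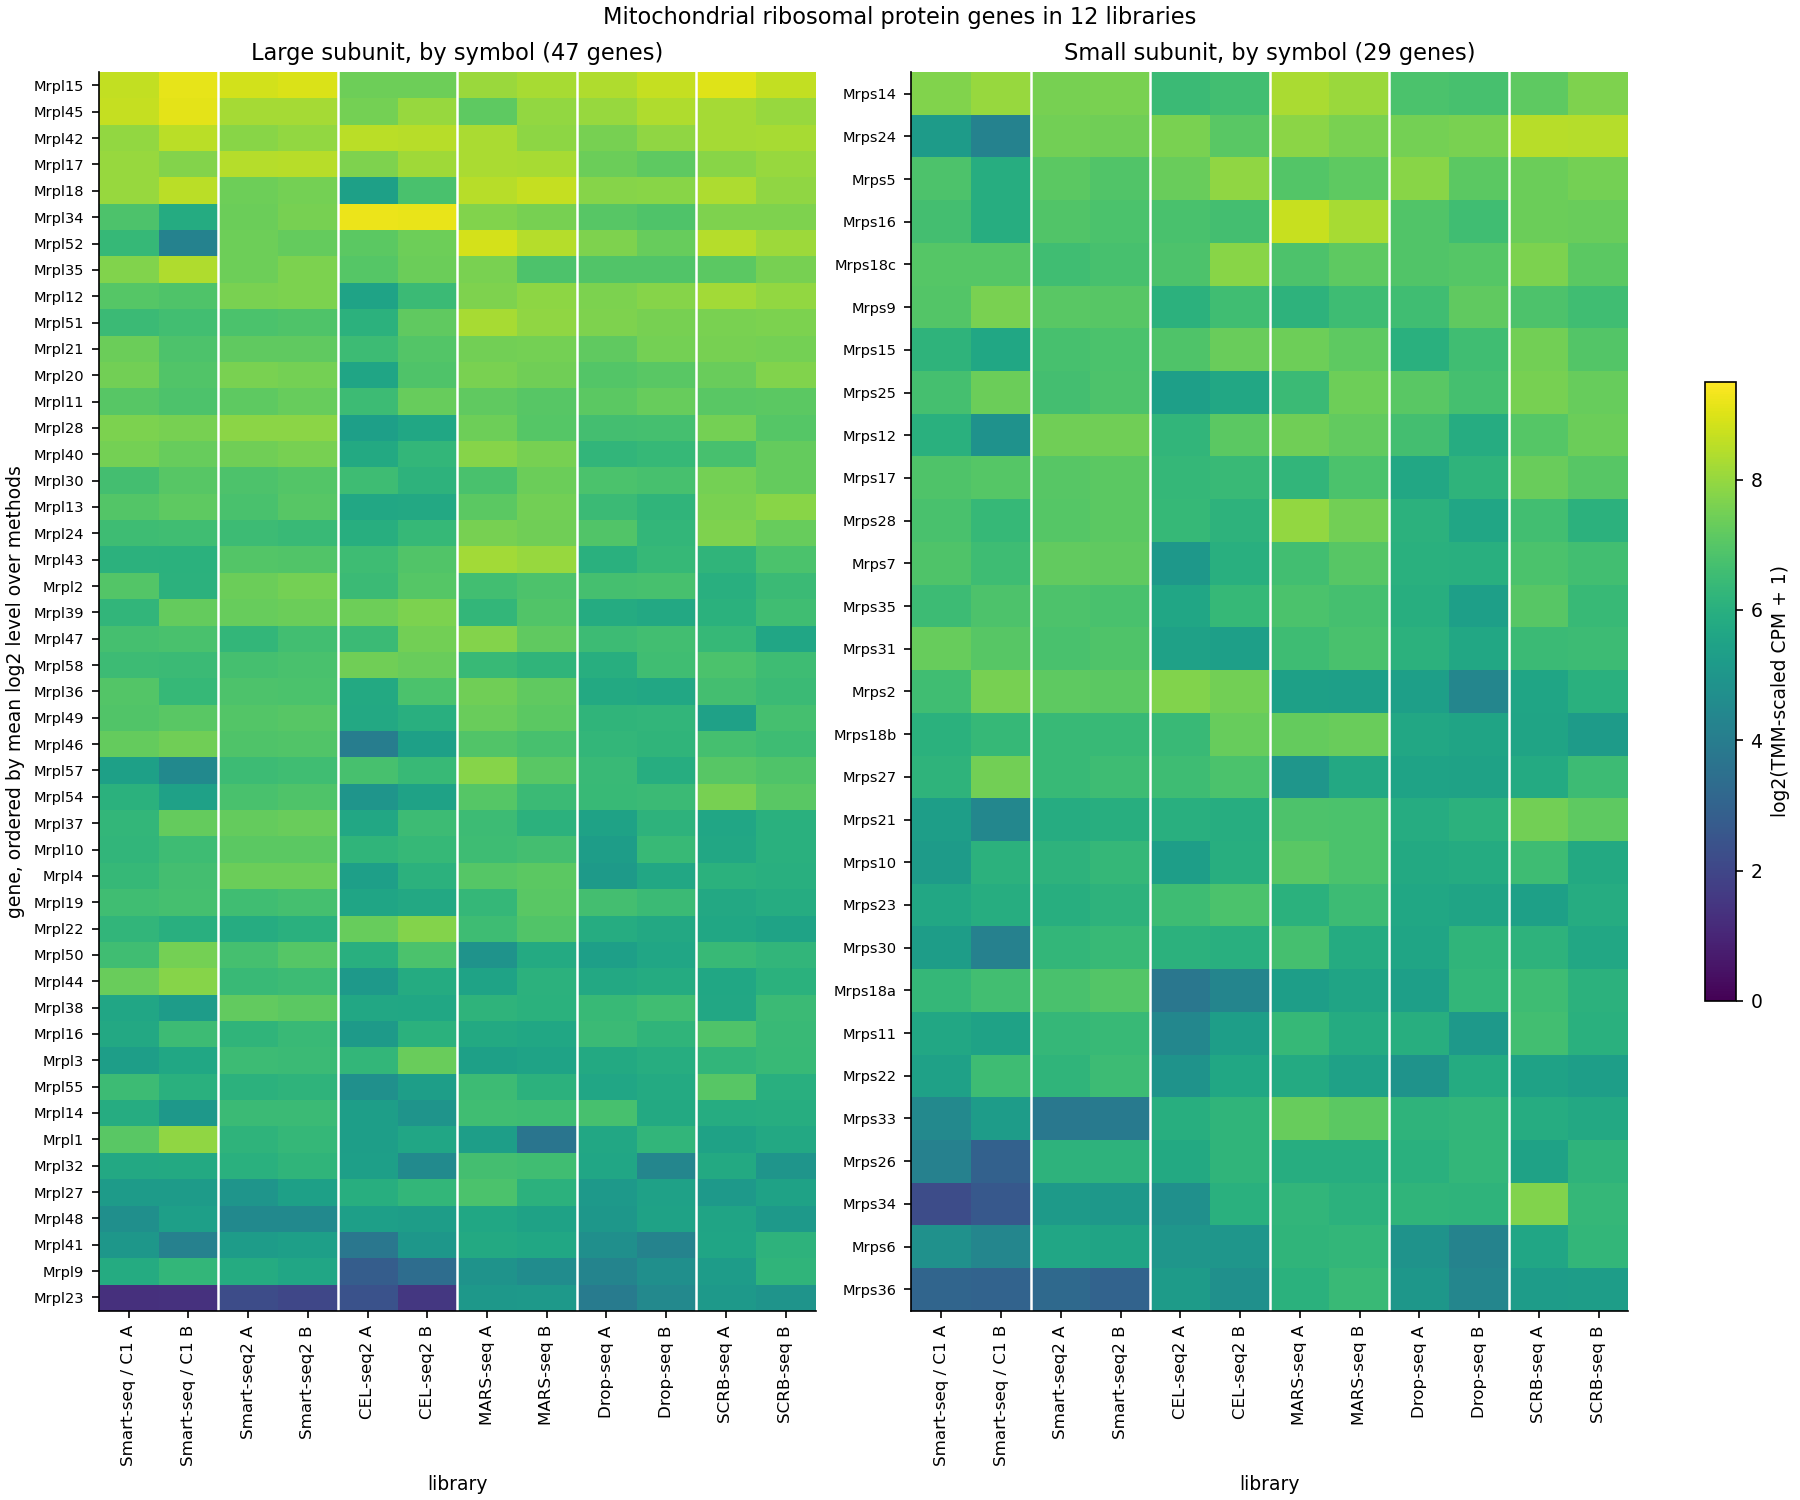
Level of each of the 76 genes tested in each library, as log2(TMM-scaled CPM + 1), with libraries across and genes down, ordered by their mean log2 level over methods. White lines separate methods. Mrpl34 is brightest in both CEL-seq2 libraries, and Mrpl23 is dark in the full-length and CEL-seq2 libraries and lighter in the others.

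Divided by the length of the principal transcript, levels in the 4 full-length libraries ran from 3.51 CPM per kilobase for Mrpl23 to 408 for Mrpl42. The order depends on the transcript taken. The principal transcript of Mrpl42 has 666 nt and its longest 3277 nt, and those of Mrpl52 have 418 and 856 nt. Genes were not ranked by their longest transcript. The median was 71.6 CPM per kilobase over 47 large subunit genes and 62.1 over 29 small subunit genes. Mrpl42, a protein particular to mitochondria, averaged 408 ± 97.9 CPM per kilobase (SD, n = 4 libraries), above the next gene, Mrpl52, at 250 ± 167, by less than the larger SD. Mrpl45, which in the human particle faces the inner membrane, and Mrpl15, a protein with a bacterial counterpart, averaged 160 and 114 CPM per kilobase. Among small subunit genes Mrps18c was the highest on this scale at 178 CPM per kilobase. Mrps24, Mrps14 and Mrps5, all with bacterial counterparts, averaged 101, 70.8 and 24.1 CPM per kilobase. At the low end were Mrps26 at 9.60 and Mrps36 at 10.8 CPM per kilobase, while Mrpl9 and Mrps6 averaged 37.0 and 41.6. Mrpl53 had 6 counts in all libraries together, and every exonic base of its principal transcript is also annotated to Gm42688 on the same strand.

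Of the 76 genes, 58 differed between the 6 methods in the joint test (edgeR's quasi-likelihood test, Benjamini-Hochberg adjusted p below 0.05), which were 37 of 47 large and 21 of 29 small subunit genes. Over all 14293 genes tested the joint test called 65.4%. Counting each of the 5 comparisons below, 14 genes were called in none of them, 33 in 1, 24 in 2, 4 in 3 and 1, Mrpl34, in 4. This was not tallied over all genes tested, so it does not set the family apart from them. Reads from overlapping genes may bear on some values, since nothing in the sources used here says whether strand was used in counting. In 24 of the 77 genes the principal transcript overlaps an exon of a gene on the other strand, and in 4 an exon of another gene on the same strand.

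Between full-length and 3' tag methods, genes of the family were called in both directions. In full-length methods 22 genes were higher (14 large, 8 small) and 14 lower (5 large, 9 small), against 25.6% of all genes tested called higher and 23.2% called lower. Above 0 in log2 fold change were 14 of 29 small subunit genes, against 8009 of all 14293 genes tested. The median log2 fold change was 0.20 for large and -0.15 for small subunit genes, beside 0.21 for all genes tested. The sign for the small subunit depended on the libraries: leaving out 1 library in turn gave -0.07 to 0.20, above 0 in 8 of 12 fits, against 0.24 to 0.48 for the large subunit and 0.26 to 0.56 for all genes in those fits, which tested more genes. With DESeq2's size factors in place of TMM the counts were 13 higher and 18 lower, the medians 0.05 and -0.29, and that of all genes 0.07. Without MARS-seq A or Drop-seq B 9 genes were lower, and without Drop-seq A 8. The median of the principal transcripts of the 76 genes was 1324 nt, against 2504 nt over all genes tested.

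Mrpl23, the counterpart of a bacterial protein at the exit of the peptide tunnel, had 1.47, 1.52, 3.60 and 3.11 CPM in Smart-seq / C1 A and B and Smart-seq2 A and B, against a lowest of 1.90, a median of 25.2 and a highest of 34.1 CPM in the 8 3' tag libraries. The 2 CEL-seq2 libraries held the low 3' tag values, so the groups overlapped there. It fell by 2.75 on the log2 scale in full-length methods (SE 0.43, adjusted p = 3.57e-05, edgeR).

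Mrps34, a small subunit protein particular to mitochondria, had 3.61, 5.21, 35.3 and 32.8 CPM in the 4 full-length libraries, against a lowest of 26.2, a median of 72.0 and a highest of 206 CPM in 3' tag libraries. Only CEL-seq2 library A, at the lowest 3' tag value, was below the Smart-seq2 libraries. The gene fell by 2.64 (log2, SE 0.33, adjusted p = 2.88e-06), and 62.7% of its principal transcript overlaps exons of Mapk8ip3 on the other strand.

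Mrps36, of the ketoglutarate dehydrogenase complex, stayed at 7.04 to 8.60 CPM in full-length libraries, against a lowest of 19.4, a median of 36.6 and a highest of 85.9 CPM in 3' tag libraries, with no overlap. Mrps33 likewise had 12.8 to 36.8 CPM, against 51.6 to 154 CPM. They fell by 2.36 and 2.02 on the log2 scale (SE 0.31 and 0.25, adjusted p = 5.59e-06 and 2.99e-06). Mrps24 fell by 1.67 (SE 0.23, adjusted p = 8.7e-06), with 35.7 and 17.7 CPM in Smart-seq / C1 but 177 and 172 CPM in Smart-seq2, inside the 3' tag range of 133 to 352 CPM.

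Among large subunit genes the further falls were smaller. Mrpl52 fell by 1.46 (SE 0.31), with 105 ± 69.6 CPM in full-length libraries (SD, n = 4) and 264 ± 120 CPM in 3' tag libraries (n = 8). For Mrpl57 the fall was 1.02 (SE 0.24), and for Mrpl34 it was 0.92 (SE 0.21). The adjusted p-values were 0.000789, 0.00188 and 0.00155 (edgeR). Mrpl52, Mrpl57 and Mrpl34 were also called lower in Smart-seq / C1 than in Smart-seq2 (adjusted p = 0.022, 0.0104 and 0.0448, edgeR). Their falls were thus not even across the full-length methods. Mrpl34 rests in part on CEL-seq2, where it was highest, and both Mrpl57 and Mrpl34 missed the threshold without Drop-seq library A (adjusted p = 0.051 and 0.0516), as Mrpl57 did without MARS-seq library A (0.052).

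Genes that were higher in full-length methods included Mrpl1, the counterpart of a bacterial protein of the mobile stalk beside the exit site. It had 132, 239, 72.3 and 79.0 CPM in the full-length libraries, against a lowest of 11.8, a median of 45.7 and a highest of 74.5 CPM in 3' tag libraries. Smart-seq / C1 was high and Smart-seq2 touched the top of the 3' tag range, and the gene rose by 1.49 (log2, SE 0.27, adjusted p = 0.000158). Mrpl44, which has the fold of a ribonuclease, rose by 1.28 (SE 0.22, adjusted p = 0.000107), with 86.1 to 221 CPM in full-length libraries and 33.7 to 67.1 CPM in 3' tag libraries and no overlap.

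Mrpl9 rose by 1.40 (log2, SE 0.27) and Mrpl50 by 1.08 (SE 0.25). The small subunit symbols with the largest rises were Mrps18a (1.26, SE 0.24), Mrps2 (1.22, SE 0.23), Mrps31 (0.89, SE 0.20) and Mrps22 (0.79, SE 0.28). Mrps22 passed with an adjusted p of 0.0237 and missed the threshold with DESeq2 (0.0552), with DESeq2's size factors (0.0632) and without library B of Smart-seq / C1 (0.0732) or of Smart-seq2 (0.0572). Mrps2, a small subunit protein with a bacterial counterpart, had 96.2 to 185 CPM in full-length libraries, but CEL-seq2 reached 207 and 175 CPM, above the other 6 3' tag libraries at 19.4 to 63.7 CPM.

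Of 23 genes with principal transcripts up to 1000 nt, 1 was higher in full-length methods (Mrps18a) and 8 lower, against 2.88% higher and 65.8% lower of 2814 genes of that length. Those 2814 genes are of any biotype, not protein-coding alone. Their median length was 555 nt, against 764 nt for the 23, so the 2 sets are unlike. Of 28 genes between 1000 and 2000 nt, 14 were higher and 1 lower, against 26.6% and 22.2% of 2860 genes. Of 25 longer genes, 7 were higher and 5 lower, against 33.0% and 9.09% of 8482 genes. Across genes, which are not independent replicates, Spearman's correlation of the log2 fold change with length was 0.31 over the 76 genes and 0.44 over 14156 genes with a known length.

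**Figure D3:**
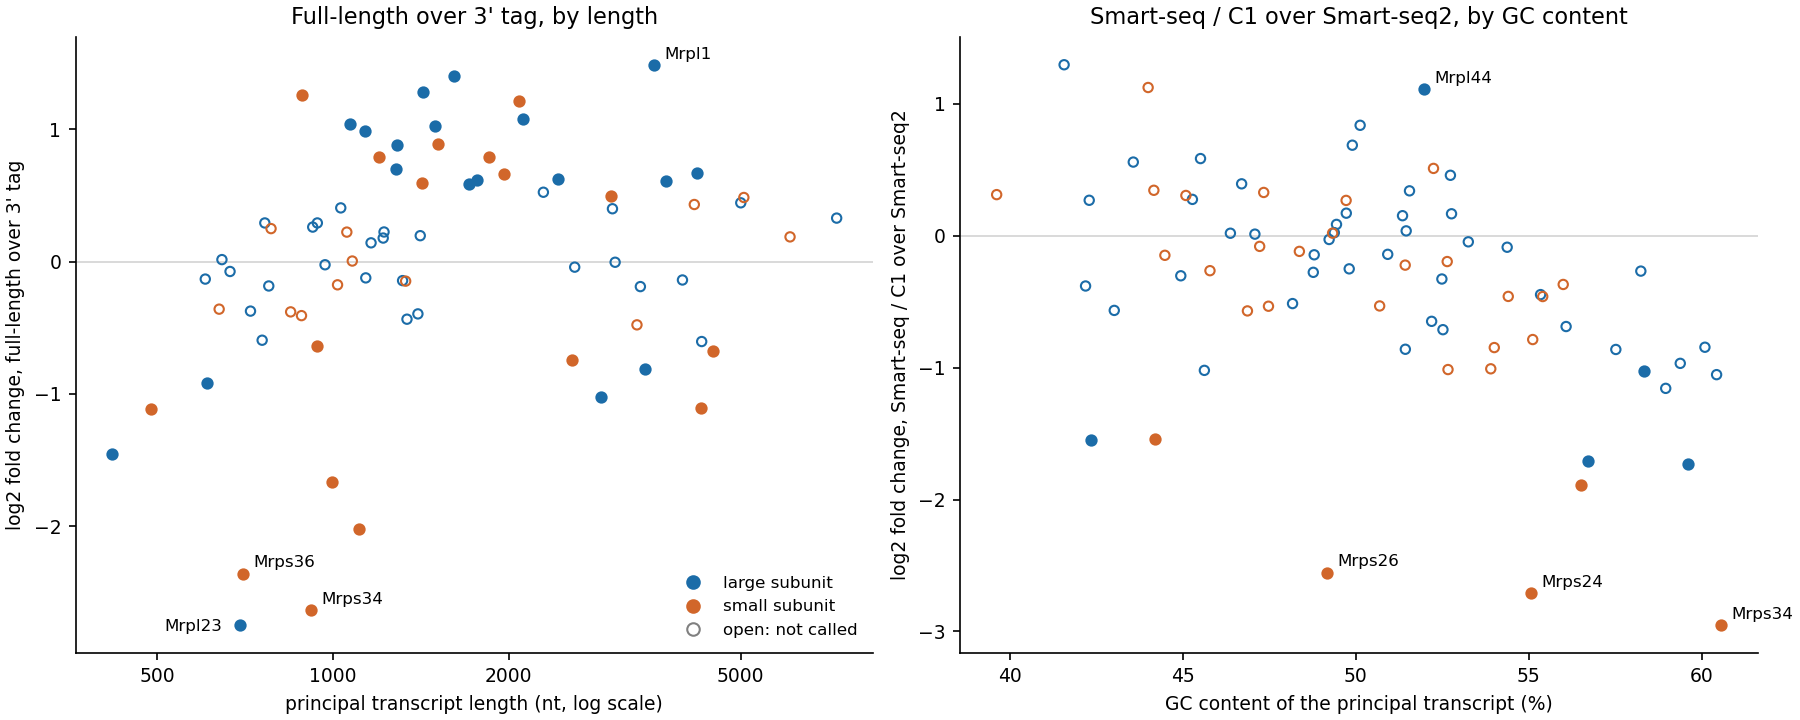
Left, log2 fold change of full-length over 3' tag methods against the length of the principal transcript (log scale). Right, log2 fold change of Smart-seq / C1 over Smart-seq2 against the GC content of that transcript. Each point is 1 gene, filled where the adjusted p was below 0.05. The steepest falls on the left, Mrpl23, Mrps34 and Mrps36, are transcripts under 1000 nt, and on the right Mrps34, with 60.6% GC, lies lowest.

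Between Smart-seq / C1 and Smart-seq2, the called genes were nearly all lower in Smart-seq / C1. There 1 gene was higher and 9 were lower (4 large, 5 small), against 8.75% of all genes tested called higher and 6.81% called lower. DESeq2's size factors gave 3 higher and 8 lower, and DESeq2 3 and 13. More genes were called lower without Smart-seq / C1 A, in the family and over all genes tested. Without its library B or a Smart-seq2 library fewer were, in both. The median log2 fold change was -0.15 for large and -0.37 for small subunit genes, beside 0.11 for all genes. Without Smart-seq / C1 A the medians were -0.23 and -0.17, so that the order of the subunits turned, and without CEL-seq2 A, MARS-seq A or B, SCRB-seq A or Drop-seq A or B they lay at -0.32 to -0.31 and -0.53 to -0.52, beside 0.00 for all genes. Without Smart-seq2 A they were -0.30 and -0.47, beside 0.06, and without Smart-seq / C1 B -0.25 and -0.36, beside -0.12. With all libraries and TMM, 0 small subunit genes were called higher by edgeR (1 at an unadjusted p below 0.05), and 1 was by DESeq2, by edgeR with DESeq2's size factors and without Smart-seq / C1 A. Of all 14293 genes tested, 2384 were higher at that unadjusted level.

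Mrps34 had 3.61 and 5.21 CPM in Smart-seq / C1 libraries A and B, against 35.3 and 32.8 CPM in Smart-seq2, and fell by 2.95 on the log2 scale (SE 0.50, adjusted p = 0.000834). Mrps24 had 35.7 and 17.7 CPM, against 177 and 172 CPM, and fell by 2.71 (SE 0.36, adjusted p = 0.00015). Mrps26, a protein particular to mitochondria, had 17.1 and 6.73 CPM, against 69.9 and 70.5 CPM, and fell by 2.55 (SE 0.46, adjusted p = 0.00124). In all 3 genes both Smart-seq / C1 libraries lay below both Smart-seq2 libraries. The 3 were named for their falls in this comparison, so this is no separate support.

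Mrps30, which sits in the large subunit, fell by 1.54 (log2, SE 0.44, adjusted p = 0.023), with 38.1 and 17.0 CPM in Smart-seq / C1, against 77.5 and 82.8 CPM in Smart-seq2. Mrpl44 was the gene that was higher, with 161 and 221 CPM in Smart-seq / C1, against 86.1 and 90.9 CPM in Smart-seq2. Its log2 fold change of 1.11 (SE 0.36) passed narrowly, with an adjusted p of 0.0472, and missed the threshold without the filter on low counts (0.0944) and in 10 of 12 fits without 1 library (adjusted p of 0.0627 to 0.34), all but those without Smart-seq / C1 A or CEL-seq2 B.

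GC content went with this comparison in the family and outside it. The 9 lower genes had a median GC content of 56.5%, with a range of 42.3% to 60.6%, against 49.9% in the genes not called. The lower genes of the whole table had a median of 56.7%, against 50.2% in genes not called. Across genes, Spearman's correlation of the log2 fold change with GC content was -0.48 over the 76 genes and -0.57 over 14156 genes. Its part in the values of single genes was not tested.

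Between in vitro transcription (CEL-seq2 and MARS-seq) and PCR (Drop-seq and SCRB-seq) among 3' tag methods, 10 genes were higher (6 large, 4 small) and 6 lower (4 large, 2 small), against 9.14% and 12.9% of all genes tested. The median log2 fold change was 0.01 for large and 0.18 for small subunit genes, beside -0.08 for all genes. Neither median had a stable sign. That of the large subunit was -0.02 with DESeq2's size factors, with DESeq2 and with the replicate block, and -0.19 to 0.14 without 1 library, below 0 in 6 of 12 fits. Without CEL-seq2 B it was -0.19 and that of the small subunit -0.04, the 1 fit in which the small subunit was below 0, and without CEL-seq2 A they were 0.14 and 0.26. Fewer were higher without MARS-seq A (5), MARS-seq B (6), SCRB-seq A, Drop-seq A or Drop-seq B (4 each). In those fits 3.96% to 5.09% of all genes tested were higher. Without CEL-seq2 A 3 were lower, and without CEL-seq2 B 10, against 8.52% and 8.20% of all genes tested.

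Mrps18b, the paralog with a place of its own in the small subunit, had 86.1 and 157 CPM in CEL-seq2 and 150 and 159 CPM in MARS-seq, against 50.7 and 45.3 CPM in Drop-seq and 45.8 and 36.3 CPM in SCRB-seq. All 4 in vitro transcription libraries lay above the 4 PCR libraries, and it rose by 1.63 (log2, SE 0.27, adjusted p = 0.000418). Of its principal transcript 59.1% overlaps Gm16279 on the other strand. Mrpl22, the counterpart of a bacterial protein lining the peptide tunnel, also showed no overlap, with 145 ± 50.7 CPM, against 51.0 ± 5.90 CPM (SD, n = 4 each), and rose by 1.46 (SE 0.25, adjusted p = 0.000592).

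Mrps18a, the paralog in the large subunit, had 12.7 and 19.0 CPM in CEL-seq2 and 39.4 and 45.9 CPM in MARS-seq, against 39.7 and 77.7 CPM in Drop-seq and 91.7 and 67.9 CPM in SCRB-seq. It fell by 1.37 (log2, SE 0.30, adjusted p = 0.00403), with the CEL-seq2 libraries lowest and MARS-seq overlapping Drop-seq. Mrps18c, the counterpart that occupies the bacterial position, had 113 to 226 CPM in the in vitro transcription libraries and 119 to 194 CPM in the PCR libraries, with a log2 fold change of 0.05 (SE 0.25, adjusted p = 0.913).

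Mrpl34 rose by 1.10 (log2, SE 0.24, adjusted p = 0.00388), with 590 and 580 CPM in CEL-seq2 and 210 and 185 CPM in MARS-seq, against 118 to 203 CPM in the 4 PCR libraries, so that MARS-seq library B lay within the PCR range. Mrpl9 fell by 1.28 (SE 0.37, adjusted p = 0.0182) and Mrpl12, which forms the stalk that recruits translation factors, by 0.96 (SE 0.24, adjusted p = 0.00905). The call of Mrpl9 was lost without CEL-seq2 A, MARS-seq B, SCRB-seq B or Drop-seq B (adjusted p of 0.0608 to 0.0926), and that of Mrpl12 without MARS-seq A (0.0586).

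Between CEL-seq2 and MARS-seq, most called genes of the family were lower in CEL-seq2. There 30 genes were lower (20 large, 10 small) and 4 higher (3 large, 1 small), against 12.4% of all genes tested called lower and 11% called higher. The median log2 fold change was -0.79 for large and -0.65 for small subunit genes, beside 0.19 for all genes. Below 0 were 60 of the 76 genes, against 6343 of all 14293 genes tested. Without CEL-seq2 A the medians were -0.51 and -0.26, beside 0.14, and without CEL-seq2 B -0.99 and -1.06, beside 0.10. With DESeq2's size factors they were -0.96 and -0.82, beside 0.02. Without MARS-seq A they were -0.79 and -0.57, beside 0.21, and without MARS-seq B -0.67 and -0.65, beside 0.32. Fewer genes were called lower without 1 library of either method, in the family and over all genes tested.

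Mrpl18, whose bacterial counterpart binds an rRNA of the large subunit, had 41.3 and 109 CPM in CEL-seq2 libraries A and B, against 355 and 404 CPM in MARS-seq, and fell by 2.31 on the log2 scale (SE 0.39, adjusted p = 0.000414). Mrpl46, the head-to-head partner of Mrps11, had 15.2 and 41.3 CPM, against 120 and 105 CPM, and fell by 1.94 (SE 0.41, adjusted p = 0.0024). Mrps11 itself had 20.2 and 38.7 CPM, against 80.6 and 56.5 CPM, a log2 fold change of -1.18 (SE 0.45) that missed the threshold with an adjusted p of 0.0678. In each of the 3 genes both CEL-seq2 libraries lay below both MARS-seq libraries. Mrpl18 and Mrpl46 were named for their falls here and Mrps11 after its values were seen, so this is no separate support.

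Mrpl23 had 4.22 and 1.90 CPM in CEL-seq2, against 32.2 and 34.1 CPM in MARS-seq, and fell by 3.54 (log2, SE 0.73, adjusted p = 0.00194). The genes that went the other way were fewer. Mrps2 had 207 and 175 CPM in CEL-seq2, against 41.2 and 40.0 CPM in MARS-seq, and rose by 2.23 (SE 0.42, adjusted p = 0.00103). Mrpl34 had 590 and 580 CPM, against 210 and 185 CPM, and rose by 1.57 (SE 0.34, adjusted p = 0.00325, but 0.0655 without MARS-seq B). Mrpl3, the counterpart of a bacterial protein near the catalytic centre, rose by 1.46 (SE 0.41, adjusted p = 0.0156) with 76.8 and 159 CPM, against 41.2 and 44.7 CPM, and missed the threshold without CEL-seq2 B, MARS-seq A or MARS-seq B (adjusted p of 0.1 to 0.226).

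Other measures moved with this comparison. Transcripts of the mitochondrial genome took 9.40% and 9.59% of the median cell in CEL-seq2 A and B, against 5.91% and 0.782% in MARS-seq, and cytosolic ribosomal protein genes 7.09% and 5.25%, against 11.03% and 11.8%. Cytosolic ribosomal protein genes were lower in CEL-seq2 in 55 of 76 and higher in 3, with a median log2 fold change of -2.42. The median cell had 35652 and 74255 counts in CEL-seq2 and 22804 and 25637 in MARS-seq. The part of these in the lower values of the family was not tested. Transcript length was related to the fold change with a Spearman correlation of 0.21 over the 76 genes and 0.39 over all genes, and GC content with one of -0.25 and -0.13.

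**Figure D4:**
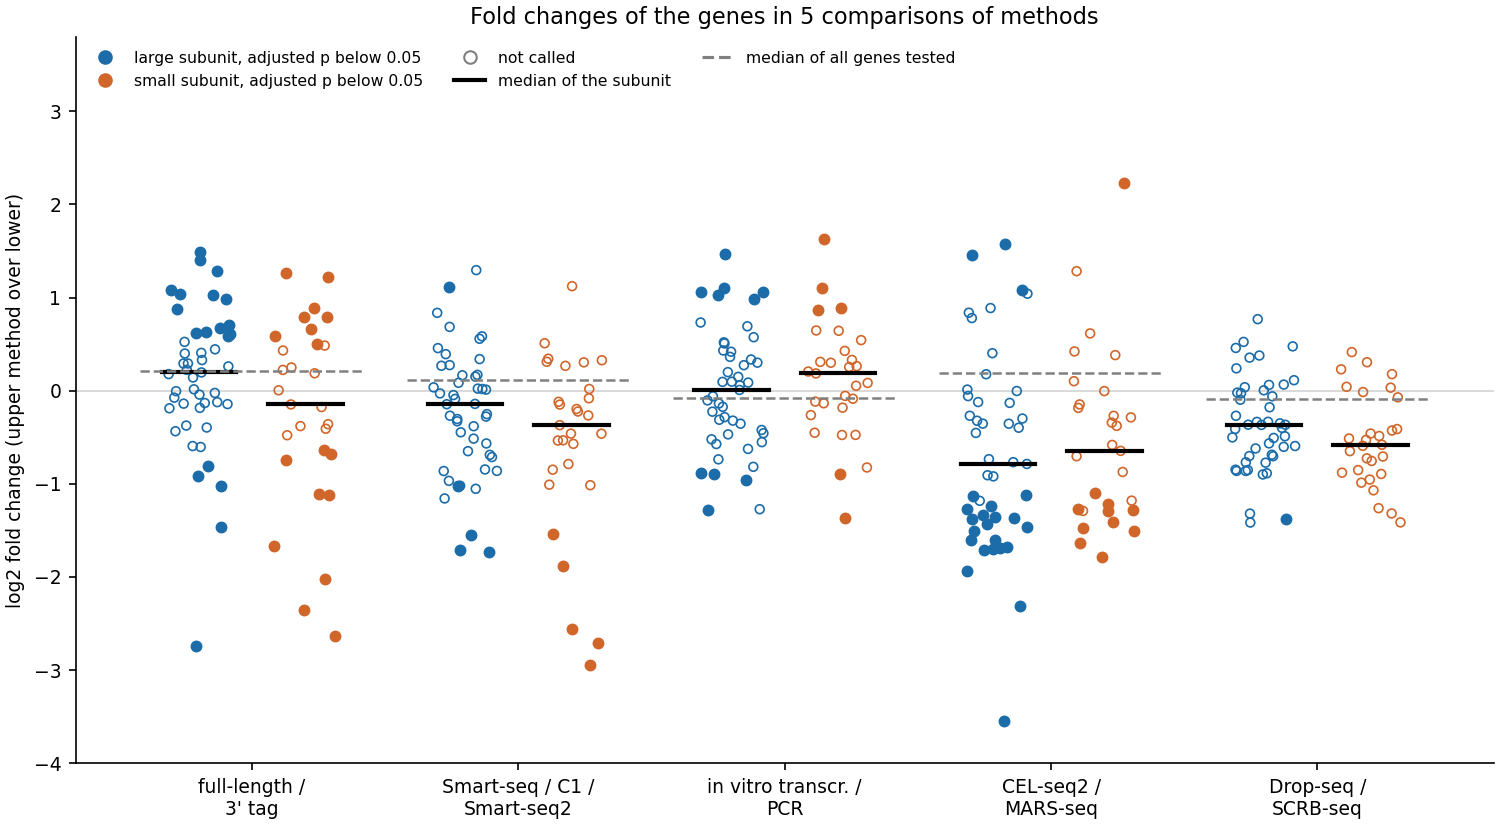
Log2 fold change of every gene tested in 5 comparisons, by subunit, with the upper method of each axis label over the lower one. Filled points passed an adjusted p of 0.05, black bars are subunit medians and dashed lines the median of all genes tested. Both subunit medians lie below the dashed line most clearly for CEL-seq2 over MARS-seq, at -0.79 and -0.65 against 0.19.

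Between Drop-seq and SCRB-seq, 1 gene passed. No gene was called higher by edgeR or by DESeq2 (1 at an unadjusted p below 0.05), and 1 large subunit gene was lower, against 1.03% and 0.483% of all genes tested. At the unadjusted level 1334 of all 14293 genes tested were higher. The median log2 fold change was -0.37 for large and -0.58 for small subunit genes, beside -0.09 for all genes, and with DESeq2's size factors it was -0.16 and -0.37, beside 0.11. Without SCRB-seq A the medians were -0.23 and -0.36, beside 0.02, and without Drop-seq B -0.43 and -0.38, beside -0.02. Mrpl13, the counterpart of a bacterial protein, had 87.1 and 72.9 CPM in Drop-seq libraries A and B, against 193 and 224 CPM in SCRB-seq, and the libraries did not overlap. It fell by 1.38 (log2, SE 0.33, adjusted p = 0.0413), and missed the threshold with DESeq2's size factors (adjusted p = 0.066), with the replicate block (0.0504) and without any 1 of 8 libraries (0.0906 to 0.352).

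**Figure D5:**
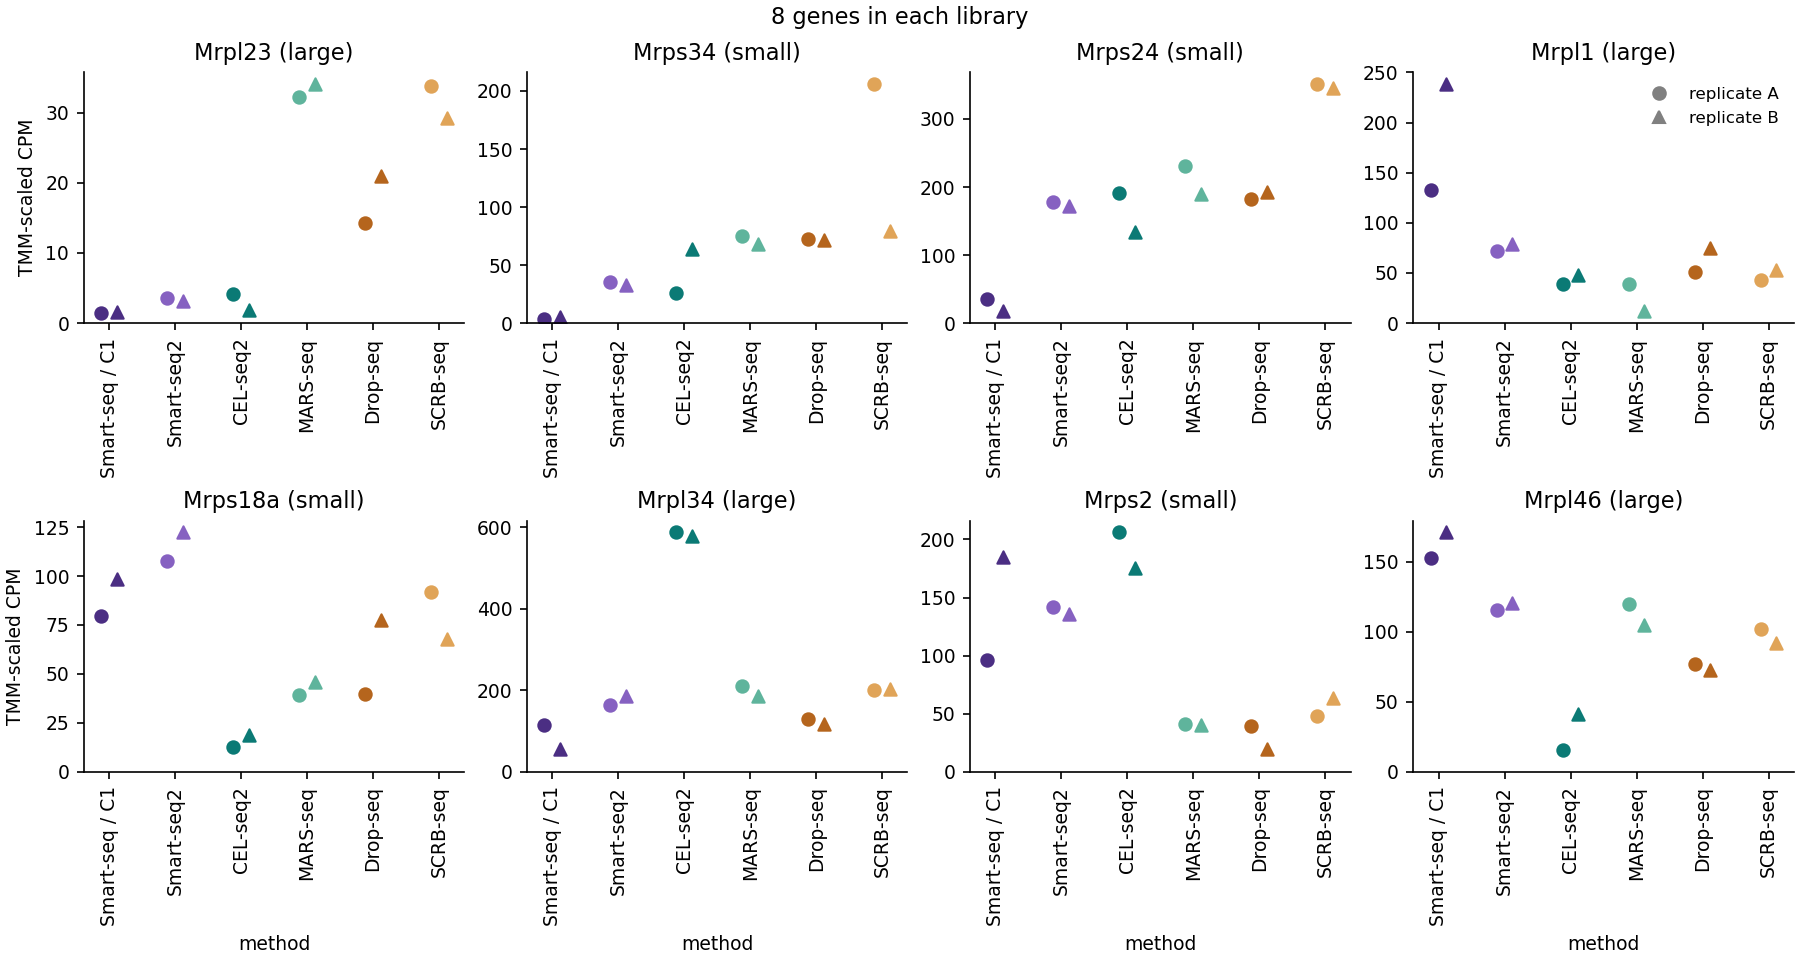
TMM-scaled CPM of 8 genes in each library, with methods across, circles for library A and triangles for library B. Mrpl23 is below 5 CPM in Smart-seq / C1, Smart-seq2 and CEL-seq2 and above 14 CPM elsewhere, and Mrpl34 reaches 580 CPM or more in CEL-seq2 alone.

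No gene of the family was called as varying among cells more or less than the trend for its level. In thinned cells, each gene's log2 squared coefficient of variation was set against a loess curve over mean level, and limma tested its distance from that curve. This took in 2644 genes whose mean reached 0.2 counts in all libraries, 55 of them in the family. Of these 55, 0 were called above the trend and 0 below it, against 2.65% and 2.69% of the genes tested. At an unadjusted p below 0.05, 1 lay above and 4 below, against 212 and 290 of all 2644 genes tested. The lowest adjusted p in the family was 0.204 (limma). The median residual was -0.06 over the 36 large and -0.04 over the 19 small subunit genes, beside -0.01 over all genes tested. Below 0 were 41 of the 55 residuals, against 1372 of 2644 over all genes tested.

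The highest residuals were those of Mrpl13 (0.25, adjusted p = 0.255), Mrpl44 (0.21, 0.294) and Mrps17 (0.18, 0.379). The lowest were those of Mrps25 (-0.25, 0.259), Mrpl2 (-0.22, 0.207), the counterpart of a bacterial protein at the catalytic centre, and Mrps16 (-0.21, 0.204). Residuals of Mrpl13 ran from -0.41 in Drop-seq library A to 1.53 in MARS-seq library A, so its 12 libraries lay on both sides of the trend. Those of Mrps16 were below 0 in 10 of 12 libraries and lowest in Smart-seq / C1, at -0.58 and -0.81.

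Genes that work with these proteins were counted alongside. Of 5 mitochondrial ribosome proteins whose symbols do not follow the pattern, Ptcd3 had 224, 757, 158 and 167 CPM in full-length libraries, against 12.7 to 92.6 CPM in 3' tag libraries, and rose by 2.60 (log2, adjusted p = 9e-07). Gadd45gip1, of the large subunit, had 18.7, 6.42, 66.7 and 59.6 CPM, against 93.6 to 222 CPM, and fell by 2.20 (adjusted p = 4.37e-06). Chchd1 and Aurkaip1 were lower in CEL-seq2 than in MARS-seq, by 1.49 and 1.06 (adjusted p = 0.00507 and 0.0271), and Dap3, a small subunit GTP-binding protein, passed in none of the 5 comparisons.

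Of 26 assembly factors, 13 were higher and 2 lower in full-length than in 3' tag methods, with a median log2 fold change of 1.08, against 25.6% higher, 23.2% lower and a median of 0.21 over all genes tested. Of 76 cytosolic ribosomal protein genes, 1 was higher and 64 lower there, with a median of -2.26. For the assembly factors in CEL-seq2 against MARS-seq, 1 was higher and 1 lower, with a median of -0.24, against 11% higher, 12.4% lower and 0.19 over all genes. Of 16 genes tested from a list of translation factors and genes that act beside them, 3 were higher and 1 lower in full-length methods. In CEL-seq2 against MARS-seq, 2 of them were higher, Lrpprc and Slirp, and 1 lower, Tufm. Lrpprc, which stabilises mitochondrial mRNAs, had 362 and 382 CPM in CEL-seq2, against 48.4 and 101 CPM in MARS-seq, and its partner Slirp 76.8 and 143 CPM, against 44.8 and 21.2 CPM. They rose by 2.29 and 1.78 (log2, adjusted p = 0.000377 and 0.0168), while Tufm, the elongation factor, fell by 2.22 (0.00115). The organelle's own rRNAs varied between libraries of 1 method. mt-Rnr2 had 40443 and 9195 CPM in MARS-seq libraries A and B, and mt-Rnr1 8462 and 974 CPM. Neither rRNA passed between CEL-seq2 and MARS-seq (adjusted p = 0.138 and 0.769).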

How the data were processed

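Counts were deposited by the authors as whole numbers per gene and cell. The 3' tag counts are UMIs that the Drop-seq pipeline tallied, according to the deposited notes. STAR 2.4.0, bcl2fastq and the mm10 genome are named in the submitters' processing notes. The counter of full-length reads, the annotation and the use of strand are not given in the sources used here.

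Counts were summed per library, which is the unit of replication because cells are not replicates. Of 26619 genes with a count, filterByExpr in edgeR 4.0.16 (R 4.3.3) kept 14293, which were scaled by TMM. A robust quasi-likelihood model held 1 mean per method over the 12 libraries (6 residual degrees of freedom, common biological coefficient of variation 0.418). It gave 5 orthogonal contrasts and their joint test, with Benjamini-Hochberg adjustment over all genes. Contrasts average methods on the log2 scale. DESeq2 1.42.0 was an alternative. Variation was tested with limma 3.58.1 (loess span 0.5). Fits were tested on simulated data.

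Symbols, coordinates, lengths and GC content of the principal transcript came from GENCODE M21 (GRCm38, the assembly of mm10), which matched 37607 identifiers. All cells were kept, doublets were not called, and the 10 cells above 2 times their library's median count were left out in an alternative. Errors carry the spread between libraries, and low counts, such as 1304 small subunit counts in the shallowest library, limit precision.

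Named genes were Mrps18a, Mrps18b, Mrps18c, Mrps30 and Mrps36, genes the filter dropped, the 3 highest and 2 lowest of each subunit by mean log2 level over methods, the 4 largest rises and falls per subunit between full-length and 3' tag methods, the 3 largest each way in the other comparisons, and the 3 highest and lowest residuals. Mrps11 and the genes of related lists were named after their values were seen, apart from this rule. The genes and lists were chosen with earlier results of these data known.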

Additional observations from a re-analysis of the deposited data

How the results depend on the processing

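The joint test called 58 genes and 52 to 65 by DESeq2, DESeq2's size factors, no filter or the replicate block, and 36 of the 50 genes sharing under 10% of their 31-mers with other genes. Within those 50, full-length methods gave 8 lower, in vitro transcription 5 higher and CEL-seq2 19 lower, out of fewer genes. DESeq2's size factors gave 13 genes higher in full-length methods. In Smart-seq / C1, 3 were higher with DESeq2 or its size factors. In Drop-seq, 2 were lower with DESeq2 and 0 with its size factors or the replicate block. Other causes were not tested.

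Leaving out 1 library in turn gave 45 to 67 joint calls, 19 to 31 higher and 8 to 16 lower in full-length methods, 0 to 3 higher and 4 to 14 lower in Smart-seq / C1, 4 to 15 higher and 3 to 10 lower in in vitro transcription methods, 1 to 5 higher and 11 to 33 lower in CEL-seq2, 0 higher and 0 to 3 lower in Drop-seq, and 0 above and 0 to 1 below the trend among cells (Mrps25, without Drop-seq A). Full-length methods had 9 lower without MARS-seq A or Drop-seq B and 8 without Drop-seq A. The share of all genes tested that was called also changed in these fits, so such counts do not compare with the main shares. Of 33 named fold changes, 24 kept direction and call in all alternatives with a value, and none of the 33 changed sign.

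The subunit ratio, averaging 2.14 over methods, was 2.32 by position, 1.16 as a ratio of medians, 2.15 per kilobase of the longest and 2.24 of the principal transcript, the last chosen after seeing the data, and 2.12 to 2.16 without 1 library. The share of counts, 0.85% on average, ran from 0.835% to 0.864%. A cell showed 41.8 genes at 10000 counts (41.1 to 42.6 without 1 library), 28.1 at 5000 and 64.7 from all counts, so this number varied with depth. The correlation of subunits among cells averaged 0.229 (0.201 to 0.257 without 1 library), 0.504 from all counts and, in alternatives added after seeing the data, 0.0431 at 5000 counts and 0.266 in a second draw at 10000.

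Replicate letters did not pair libraries: 15 correlations of deviations between methods lay between -0.084 and 0.078. The replicate block gave 55 joint calls, and in CEL-seq2 5 higher and 27 lower. It removed 1 named call, that of Mrpl13.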
